A study of Mus musculus with 10 samples.

Results

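The genes described here are 44 genes of DNA replication and S phase, read in the inflamed joint lining of 10 mice, of which 5 had received maslinic acid and 5 its vehicle. A gene was read from the probe sets of the array that the platform annotation assigns to it alone, and where several did, from the one with the highest mean over the 10 arrays. All 44 genes were found, through 93 probe sets, among 18128 genes named by such probe sets and 39993 probe sets in all. The platform annotation gives genes no position here, so positions below belong to RefSeq promoter windows and not to probe sets.

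The study used collagen antibody-induced arthritis, a mouse model in which antibodies against type II collagen, followed by lipopolysaccharide, inflame the joints within days. All 10 mice were male DBA/1J animals labelled 8 weeks old, on a purified diet with corn oil as its fat, and all were injected with 1 mg of the antibody (day 8) and later with 25 µg of lipopolysaccharide (day 11). The maslinic acid group took 200 mg/kg body weight of maslinic acid, a plant triterpene, by mouth every day in corn oil, and the vehicle group took the oil alone. Tissue was taken on day 12. The synovium of the left hind leg was freed of muscle and skin, and RNA was labelled for Affymetrix arrays, which read transcripts near their 3′ ends. Sample titles number the 5 mice of each group as biological replicates. An untreated group was not analysed here, so the arthritis itself has no comparison. Because whole tissue was measured, fewer cells of a type and less RNA per cell cannot be told apart.

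Before a cell copies its DNA, the origin recognition complex with Cdc6 and Cdt1 loads the MCM ring onto origins, and Cdc45 and the GINS complex later turn that ring into a working helicase. DNA polymerase alpha with primase starts each strand, polymerases delta and epsilon extend it, and the sliding clamp PCNA, set in place by replication factor C, holds them on the template. E2F transcription factors switch on many of these genes together as a cell passes from G1 into S phase, so their transcripts are widely used as a sign of proliferating cells, which in a joint can be synovial fibroblasts or blood cells and their precursors.

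Stretches from the promoters of 8 of the genes are printed first because they hold letters that E2F factors are known to bind. They come from RefSeq windows on build GRCm38.p6, each of 250 bases before and 50 after a gene's start, and run 5′ to 3′ along the gene's own strand. Capitals mark the matches to TTTCCCGC, TTTCGCGC, TTTGCCGC or TTTGGCGC, searched on both strands, with overlapping matches joined.
Mcm6, chr1:128359719-128359841, minus strand: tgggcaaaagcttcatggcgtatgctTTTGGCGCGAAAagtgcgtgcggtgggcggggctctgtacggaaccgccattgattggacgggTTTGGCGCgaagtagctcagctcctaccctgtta
Orc1, chr4:108579401-108579453, plus strand: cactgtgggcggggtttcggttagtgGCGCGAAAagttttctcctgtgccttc
Mcm7, chr5:138172015-138172074, minus strand: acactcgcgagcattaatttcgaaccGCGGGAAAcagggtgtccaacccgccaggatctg
Rfc3, chr5:151651209-151651244, minus strand: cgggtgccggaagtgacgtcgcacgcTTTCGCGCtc
Mcm5, chr8:75109330-75109393, plus strand: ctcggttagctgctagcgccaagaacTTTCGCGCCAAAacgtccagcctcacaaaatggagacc
Gins3, chr8:95633492-95633551, plus strand: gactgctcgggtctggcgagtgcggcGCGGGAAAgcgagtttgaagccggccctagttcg
Cdc6, chr11:98907987-98908046, plus strand: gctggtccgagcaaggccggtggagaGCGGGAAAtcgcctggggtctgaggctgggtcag
Pola1, chrX:93632260-93632319, minus strand: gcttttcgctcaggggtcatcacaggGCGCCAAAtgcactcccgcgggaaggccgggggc

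A RefSeq window was at hand for 35 of the 44 genes, and not for Mcm4, Gins1, Gins2, Gins4, Prim2, Pole, Rfc2, Ccne2 and Ccna2. E2F letters stood in the windows of 13 of these 35 genes, or 37.1%, against 3.81% of the 14409 measured genes with a window and 2.60% of all 27025 genes with one. The 13 were Orc1, Cdc6 and Cdt1 of origin licensing, Mcm3, Mcm5, Mcm6, Mcm7 and Gins3 of the helicase, Pola1, Pold1 and Pole2 of the polymerases, Rfc3 of the clamp loader and Lig1, the ligase that seals the lagging strand. Of 19 matches, 11 lay wholly before the start and 8 reached past it. Mcm6 had 3 matches, more than any other member, with first bases 110, 106 and 47 bases before its start.

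The other promoter letters searched differed less in their share from measured genes. GGGCGG, the core of a GC box bound by Sp factors, was in 77.1% of the 35 windows against 57.4% of measured genes. CCAAT, the letters bound by NF-Y, was in 60.0% against 42.0%. TTTGAA or TTCGAA, the CHR element of genes that peak in G2 and mitosis, was in 7 of the 35 against 17.5%. TATAAA, the TATA box, was in 8.57% against 11.5%. All were searched on both strands, and a window with no match says only that those letters were not in it.

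**Figure D1:**
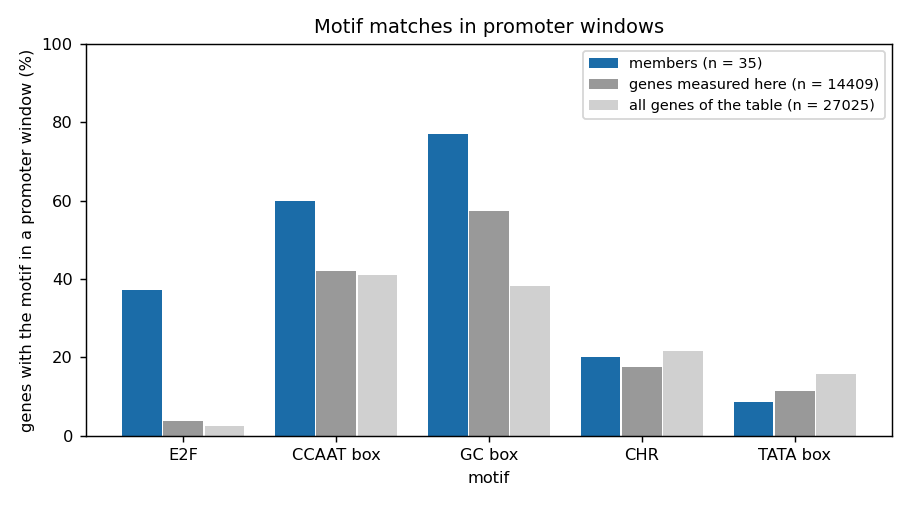
Bars give the percentage of genes with a motif in a promoter window, for the 35 members with a window (blue), 14409 measured genes (dark grey) and 27025 genes of the RefSeq table (light grey). E2F letters were in 37.1% of the members against 3.81% of measured genes, and the TATA box was in 8.57% against 11.5%.

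Probe sets were deposited as scores of unstated scale that hardly moved between arrays. The range over 10 arrays was under 0.001 for 93.5% of all probe sets, and for the 44 genes it ran from 7 millionths of a unit for Gins2 to 4768 for Cdc6. A difference is therefore not read as a fold. Values of single arrays are given in millionths of the deposited unit above that gene's lowest array, and group differences as Hedges' g. This is the treated mean minus the vehicle mean in SDs within groups, given with its 95% confidence interval. Array medians over all probe sets themselves spanned 272 millionths, more than the whole range of 24 of the 44 genes. Of the 44, 12 held fewer than 10 distinct values at the 6 decimals printed, down to 5 for Gins2. The genes' mean scores ran from 6.15 for Tyms to 12.05 for Pcna, and 43 of 44 exceeded 6.74, the median over probe sets. These mean scores give no order between genes, since probe sets differ in brightness. Prg4, which encodes the joint lubricant lubricin, and Cdh11, the cadherin of synovial fibroblasts, were at 11.55 and 10.19. The lowest score in the table was 5.12, so no gene could be at 0, and a score above 0 does not show that a gene was detected. Vehicle mice 3 and 5 received the lowest array weights in limma, 0.458 and 0.339, against 0.857 to 2.01 for the other arrays.

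No replication gene differed between the groups past the threshold, and most of them leaned toward lower values with maslinic acid without clearing the spread between mice. With limma fitted to all probe sets and Benjamini-Hochberg adjustment, 0 of the 44 passed an adjusted p of 0.05 (lowest 0.467). Of all probe sets 0 passed as well, a share of 0% (lowest adjusted p 0.148, with 3617 of 39993 probe sets under an unadjusted 0.05). The exact Wilcoxon test likewise passed 0 of the 44 and 0 probe sets, with 2741 probe sets under an unadjusted 0.05. At an unadjusted limma p under 0.05, 6 of 44 genes (13.6%) were lower and 0 higher, where 4.54% of all genes were lower and 4.29% higher. The 6 were Gins1, Gins2 and Gins4 of the helicase, the polymerase epsilon subunit Pole2, the primase Prim1 and the clamp Pcna. By the exact Wilcoxon test 5 of 44 were lower and 0 higher at the same unadjusted level, where 3.68% and 3.07% of all genes were.

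Group means were lower with maslinic acid for 31 of the 44 genes (70.5%) and higher for 13, while 48.3% of all genes were lower. The median g was -0.45, with values from -2.15 for Gins2 to 0.59 for Cdc6, beside 0.00 over all genes. Among genes with 10 distinct values, the median was -0.18 for 32 replication genes and 0.23 for 6743 genes, and 19 of the 32 had a lower mean. After each array's median was subtracted, 35 of 44 means (79.5%) were lower where 85.1% of all genes were, and 0 of the 44 stayed under an unadjusted p of 0.05, so neither count stood above the background under that scaling. Lower means numbered 24 (54.5%) without vehicle mouse 1 and 24 (54.5%) without maslinic acid mouse 2, beside 48.6% and 48.8% of all genes. Without vehicle mouse 5 the lower means numbered 42 (95.5%, beside 50.4% of all genes). The second count, genes lower at an unadjusted limma p under 0.05, was then 10 (22.7%, beside 4.72%). Without vehicle mouse 3 the second count was 4 (9.09%, beside 3.98%), and without maslinic acid mouse 1 it was 10 (22.7%, beside 3.67%). The heatmap of all 44 genes and the plot of their g values show both this lean and how unevenly it is spread.

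**Figure D2:**
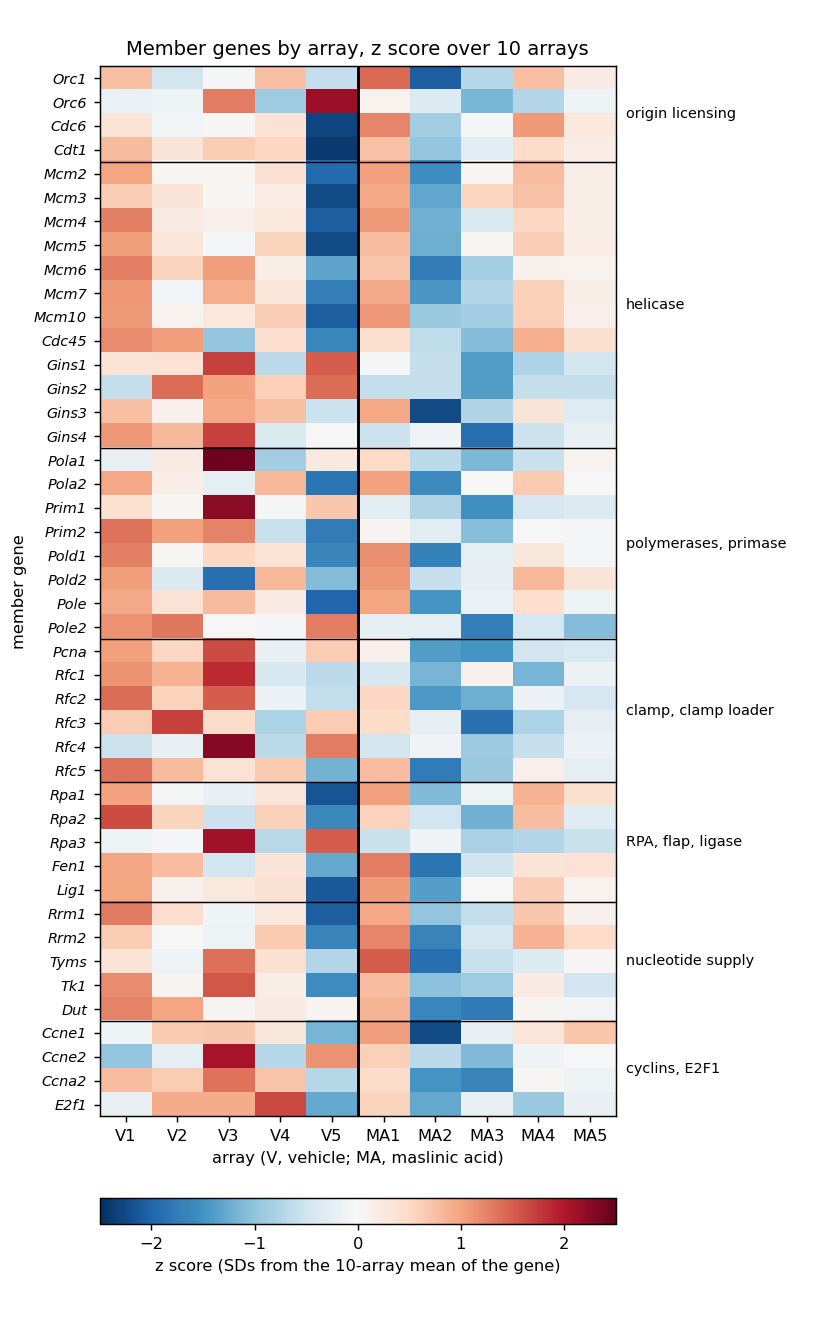
Rows are the 44 genes by role, columns the 5 vehicle (V) and 5 maslinic acid (MA) arrays, and colour is the z score of each gene over the 10 arrays. Vehicle mouse 5 was the lowest array for 18 genes, maslinic acid mouse 3 for 14 and maslinic acid mouse 2 for 11.

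**Figure D3:**
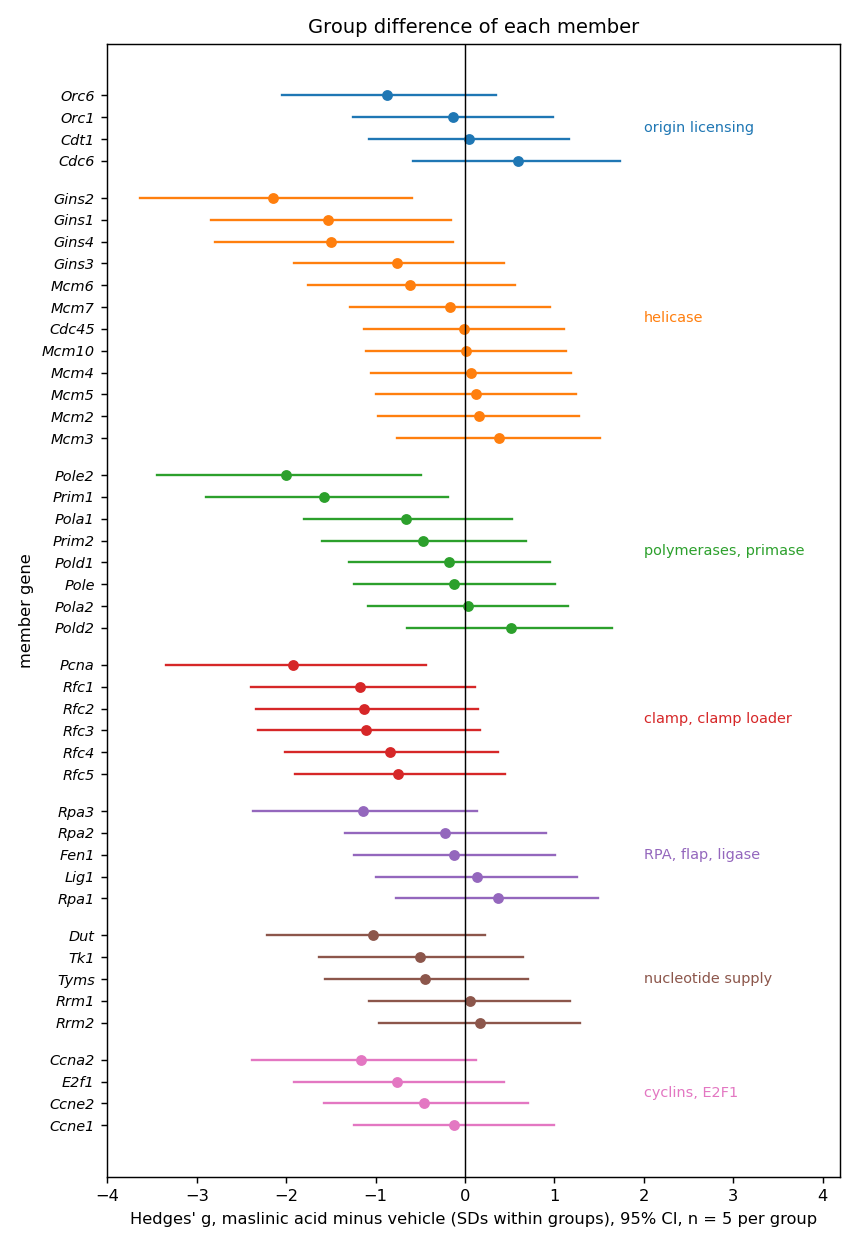
Points give Hedges' g of each gene, maslinic acid minus vehicle, with lines for the 95% confidence interval (n = 5 per group), coloured by role. Intervals of 6 genes lie wholly below 0, those of Gins2, Pole2, Pcna, Prim1, Gins1 and Gins4, and the highest g is 0.59 for Cdc6. These 6 are the members lower at an unadjusted limma p under 0.05, where 4.54% of all genes were.

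The 4 origin licensing genes were split in direction, with a median g of -0.05. Cdc6, the loader of the MCM ring, stood at 3574, 3039, 3147, 3620 and 0 millionths in vehicle mice 1 to 5 and at 4768, 1931, 3076, 4561 and 3486 in maslinic acid mice 1 to 5. Vehicle mouse 5 lay far below every other mouse, and the remaining mice of both groups were mixed. The means were 2676 ± 1518 and 3564 ± 1157 (SD, n = 5 each), with a g of 0.59 (95% interval -0.58 to 1.73) and an exact permutation p of 0.413 (limma unadjusted p = 0.313). Cdt1, which brings the ring to the origin, was at 2877, 2459, 2731, 2627 and 0 in the vehicle mice against 2824, 1271, 1924, 2582 and 2332 with maslinic acid. The vehicle mice other than mouse 5 were high and close together, and the maslinic acid mice reached from among them to well below. Its g was 0.05 (-1.08 to 1.16), but -0.07 after quantile normalization and -0.91 without vehicle mouse 5, so it has no settled direction. Orc1 and Orc6, subunits of the origin recognition complex, had a g of -0.14 and -0.87.

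The 95% interval of g included 0 for each MCM ring gene, and it lay wholly below 0 for 3 of the 4 GINS genes. These 3 were among the 6 members lower at an unadjusted limma p under 0.05, where 4.54% of all genes were. Mcm2, a ring subunit, read 1428, 968, 969, 1131 and 0 millionths in the vehicle mice and 1444, 183, 970, 1317 and 1023 in the treated mice. In both groups 4 mice were high and 1 was low, vehicle mouse 5 and maslinic acid mouse 2, and the groups overlapped throughout. Its means were 899 ± 537 and 987 ± 491 (SD, n = 5 each), with a g of 0.15 (-0.97 to 1.27). Mcm3, the ring subunit with 5 probe sets, went from 1045, 934, 826, 887 and 0 in vehicle mice to 1169, 347, 1013, 1082 and 877 in maslinic acid mice. The same pair of mice was low, and the g was 0.38 (-0.76 to 1.50), turning to -0.62 after quantile normalization, where Mcm2 was at -0.32.

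Mcm6, the ring subunit whose promoter holds 3 E2F matches, followed the 44 genes as a whole more closely than any other member. Its values were 107, 82, 99, 68 and 15 in vehicle mice and 87, 0, 32, 66 and 65 in maslinic acid mice. Vehicle mouse 5 was lower than every treated mouse but maslinic acid mouse 2, and the other vehicle mice overlapped with the upper treated ones. The means were 74.2 ± 36.4 and 50.0 ± 34.2 (SD, n = 5 each), with a g of -0.62 (-1.76 to 0.56) and an exact permutation p of 0.302. A second Mcm6 probe set with 10 distinct values had a g of 0.37 and an r of 0.74 with the first, a dimmer one with 7 had a g of -1.17, and the mean of the probe sets gave -0.017, so the direction of Mcm6 depends on the probe set. The remaining ring genes Mcm4, Mcm5 and Mcm7 had a g of 0.07, 0.13 and -0.17, and 3 further Mcm7 probe sets were at 0.11, 0.14 and 0.25. Mcm10 and Cdc45, which help to activate the ring, were at 0.01 and -0.01. Their second, dimmer probe sets were at -0.32 and -1.31, the latter with an unadjusted limma p of 0.044. These held 6 and 9 distinct values, and both had an r of -0.11 with the chosen probe set.

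Gins1, a subunit of the GINS complex, was at 177, 179, 318, 76 and 297 millionths in vehicle mice and at 139, 82, 0, 63 and 95 with maslinic acid. Vehicle mice 3 and 5 were the 2 highest of all, and only vehicle mouse 4 reached down into the treated mice. The means were 209 ± 99.0 and 75.8 ± 50.8 (SD, n = 5 each), with a g of -1.53 (-2.84 to -0.16), an exact permutation p of 0.0317 and a limma adjusted p of 0.496. Gins4 was at 33, 30, 40, 17 and 21 against 15, 20, 0, 15 and 19, with vehicle mouse 4 inside the treated range and the other vehicle mice above it. Its g was -1.50 (-2.80 to -0.14), with an exact permutation p of 0.0317 and a limma adjusted p of 0.504. These full values of Gins1 and Gins4, like those of Rfc4, Rpa3 and Ccne2 below, are given because of what their values were.

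Gins2 had the most negative g and the coarsest values. In vehicle mice it was at 2, 7, 6, 5 and 7 millionths, and in maslinic acid mice at 2, 2, 0, 2 and 2. Vehicle mouse 1 tied with 4 treated mice, and the other vehicle mice were above all of them. The g was -2.15 (-3.64 to -0.59), the exact permutation p 0.0397 and the limma adjusted p 0.467, on a range near the last printed decimal. A second Gins2 probe set with 9 distinct values had a g of -2.85 and correlated at 0.80 with the first over the 10 arrays. Gins3 had a g of -0.76. After subtraction of array medians Gins1, Gins2, Gins3 and Gins4 were at -1.08, -0.43, -0.44 and -0.52, beside a median of -0.39 over all genes.

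Among the 8 polymerase and primase genes, Pole2 and Prim1 were the members whose groups did not overlap on the chosen probe set. Genes with all treated mice below all vehicle mice made up 2 of the 44, and 0.734% of all genes had that order. Pole2, the second subunit of leading-strand polymerase epsilon, read 69, 74, 42, 41 and 73 in the vehicle mice and 36, 36, 0, 31 and 15 in the treated ones. The lowest vehicle mice, 3 and 4, lay just above the highest treated mice, 1 and 2. The means were 59.8 ± 16.8 and 23.6 ± 15.8 (SD, n = 5 each), with a g of -2.01 (-3.45 to -0.49). The exact permutation p of 0.00794 is the smallest that 252 assignments of the mice can give, and the limma adjusted p was 0.467. A second, dimmer Pole2 probe set with 8 distinct values had a g of -2.74 and an r of 0.60 with the first.

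Prim1, the catalytic primase subunit, read 257, 213, 512, 203 and 297 millionths in vehicle mice and 169, 107, 0, 151 and 161 in maslinic acid mice. Vehicle mouse 3 was far above the rest and maslinic acid mouse 3 far below. Means of 296 ± 126 and 118 ± 70.0 (SD, n = 5 each) gave a g of -1.58 (-2.90 to -0.20), an exact permutation p of 0.00794 and a limma adjusted p of 0.494. On its second probe set, also with 10 distinct values, the g was -0.85 and vehicle mice 4 and 5 lay within the treated range. Prim2, the large primase subunit, was at a g of -0.47.

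Pold2, the small subunit of lagging-strand polymerase delta, ran the other way, at 665, 347, 0, 619 and 185 in vehicle mice and 677, 298, 381, 617 and 501 in treated mice. Vehicle mice 3 and 5 were the lowest of all, and vehicle mice 1 and 4 were as high as the highest treated mice. The g was 0.52 (-0.64 to 1.65) with an exact permutation p of 0.381, and -0.26 without vehicle mice 3 and 5. The other polymerase genes had g values of -0.66 for Pola1, 0.04 for Pola2, -0.18 for Pold1 and -0.12 for Pole. Further probe sets were at -0.49 for Pola1, -1.69 and -0.31 for Pola2 and 0.25 for Pold1. The dim Pola2 probe set at -1.69 held 8 distinct values, with an unadjusted limma p of 0.015 and an r of -0.57 with the chosen one.

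All 6 genes of the clamp and its loader had lower means with maslinic acid, with a median g of -1.12, although Pcna was at 0.00 and Rfc3 at -0.01 after quantile normalization. Of the 6, Pcna alone reached an unadjusted limma p under 0.05 on the probe set chosen for the gene. Pcna, the sliding clamp, was at 25, 20, 31, 13 and 21 millionths in vehicle mice and at 16, 1, 0, 10 and 11 in maslinic acid mice. Vehicle mouse 4 was below maslinic acid mouse 1, the one exception to a full separation. The means were 22.0 ± 6.63 and 7.60 ± 6.88 (SD, n = 5 each), with a g of -1.92 (-3.34 to -0.44), an exact permutation p of 0.0159 and a limma adjusted p of 0.468. After quantile normalization its g was 0.00, since it then held the same value on every array, and after subtraction of array medians it was -0.54.

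The loader genes Rfc1, Rfc2, Rfc3 and Rfc5 had a g of -1.17, -1.13, -1.10 and -0.75, and each interval included 0. Their other probe sets had a g of -1.03 and -1.40 for Rfc1, -0.82 and 0.24 for Rfc2 and -1.95 for Rfc3. The unadjusted limma p was 0.034 for the Rfc1 probe set at -1.40 and 0.0074 for that of Rfc3. Rfc4, the remaining small subunit, was at 277, 544, 2384, 187 and 1638 in vehicle mice and at 328, 610, 0, 239 and 564 in treated mice. Vehicle mice 3 and 5 were far above every other mouse, and the other vehicle mice lay within the treated range. Its g of -0.84 had an exact permutation p of 0.254 and was 0.05 without vehicle mice 3 and 5, and its second probe set followed the first at an r of 0.99.

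Genes of single-strand binding and Okazaki fragment joining had a median g of -0.12, with 3 lower and 2 higher means. Rpa1, the large subunit of the single-strand binding protein RPA, was at 394, 266, 247, 308 and 0 millionths in vehicle mice and at 396, 133, 254, 377 and 319 with maslinic acid. Vehicle mouse 5 was lowest and maslinic acid mouse 2 next, and the rest overlapped. The g was 0.37 (-0.77 to 1.49), and -0.08 without vehicle mouse 5. Rpa3, the smallest RPA subunit, showed a different order, with 664, 751, 2832, 112 and 2266 in vehicle mice and 240, 705, 0, 81 and 242 in treated mice. Here vehicle mice 3 and 5 were the highest of all, as for Rfc4 and Gins1, and the g was -1.15 with an exact permutation p of 0.0794. Rpa2, the flap nuclease gene Fen1 and the ligase gene Lig1 had g values of -0.22, -0.12 and 0.13. After quantile normalization these were -2.05, -1.13 and -1.07. Rpa2 was then 1 of 4 members lower at an unadjusted limma p under 0.05 (9.09%, beside 4.99% of all genes).

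The 5 genes of nucleotide supply had a median g of -0.44 and overlapping groups. Rrm2, the small subunit of ribonucleotide reductase, was at 761, 549, 505, 768 and 4 in vehicle mice and at 956, 0, 414, 837 and 708 in treated mice. The low mice were again vehicle mouse 5 and maslinic acid mouse 2, level with each other. Its g was 0.17 (-0.96 to 1.29), turning to -0.36 after quantile normalization. Tyms, thymidylate synthase, read 71, 56, 104, 72 and 37 against 108, 0, 42, 49 and 61, with the highest and the lowest mouse both in the treated group and a g of -0.44 (-1.57 to 0.71). A Tyms pseudogene shares sequence with it, so its signal is uncertain. Rrm1, the large reductase subunit, Tk1, thymidine kinase, and Dut, which removes dUTP, had a g of 0.05, -0.51 and -1.02.

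On the chosen probe sets the S phase cyclins and E2f1 all had lower means with maslinic acid. The median g over the 4 genes was -0.61, and 0 were under an unadjusted limma p of 0.05. However, Ccne1 turned to 0.18 after quantile normalization, and its second probe set had a g of 0.30. Ccna2, cyclin A2, which drives S phase onward, was at 169, 159, 209, 164 and 65 millionths in vehicle mice and at 146, 11, 0, 117 and 106 in maslinic acid mice. On this chosen probe set all vehicle mice but mouse 5 were above all treated mice. The means were 153 ± 53.1 and 76.0 ± 66.1 (SD, n = 5 each), with a g of -1.16 (-2.38 to 0.12) and an exact permutation p of 0.0794 (limma adjusted p = 0.571). A second Ccna2 probe set, nearly as bright, had a g of -0.51 and an r of 0.87 with the first. There maslinic acid mouse 1 was above vehicle mice 1, 2 and 4, so the near separation depends on the probe set. E2f1, an activating E2F factor, was at 3, 6, 6, 8 and 0 against 5, 0, 3, 1 and 3. Its whole range was 8 millionths, vehicle mouse 5 shared the bottom with maslinic acid mouse 2, and the g was -0.76 (-1.92 to 0.44).

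Cyclin E starts S phase together with Cdk2. Ccne1 was at 125, 170, 171, 148 and 63 in vehicle mice and at 193, 0, 120, 149 and 172 in treated mice, fully overlapping, with a g of -0.12 (-1.24 to 1.00). The second Ccne1 probe set, also with 10 distinct values, had a g of 0.30 and an r of 0.84 with the first. Ccne2 was at 32, 206, 744, 89 and 522 against 399, 98, 0, 231 and 260, with vehicle mice 3 and 5 highest and a g of -0.45 that was 0.57 without them. The cyclin E genes thus placed vehicle mouse 5 near opposite ends.

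Mice of a group differed along patterns that many replication genes shared. Over the 946 pairs of members the median Pearson r across the 10 arrays was 0.57, and 55.3% of pairs exceeded 0.5 while 19.0% were below 0. For the 32 members with 10 distinct values, 60.1% of pairs exceeded 0.5, against 20.2% of all pairs among 6743 genes with 10 distinct values. These correlations describe arrays that share their RNA, depth of signal and scaling. In 32 of the 44 genes the r with the mean of the other members was above 0.6, led by Mcm6 at 0.99, Rfc5 at 0.95 and Mcm7 and Ccna2 at 0.93. It was below 0.3 in 8 genes, namely Orc6, Rpa3, Rfc4, Gins2, Ccne2, Pole2, Gins1 and Pold2.

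A first component of the members' z scores held 55.7% of their variance and a second held 27.4%. On the first, vehicle mouse 5 and maslinic acid mouse 2 lay at the low end (-0.59 and -0.52) and vehicle mouse 1 and maslinic acid mouse 1 at the high end (0.37 and 0.34). On the second, vehicle mice 3 and 5 lay at one end (0.65 and 0.40) and maslinic acid mouse 3 at the other (-0.47). Vehicle mouse 5 was thus low on the first and high on the second. It was the lowest array for 18 members (40.9%), where it was lowest for 21.6% of all genes. Among genes with 10 distinct values it was lowest for 50.0% of 32 members and for 31.7% of 6743 genes. It was among the 3 highest together with vehicle mouse 3 for 9 members. The spread among vehicle mice was the larger one for 34 of the 44 genes (77.3%). That was so for 71.7% of all genes and 81.7% of genes with 10 distinct values.

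**Figure D4:**
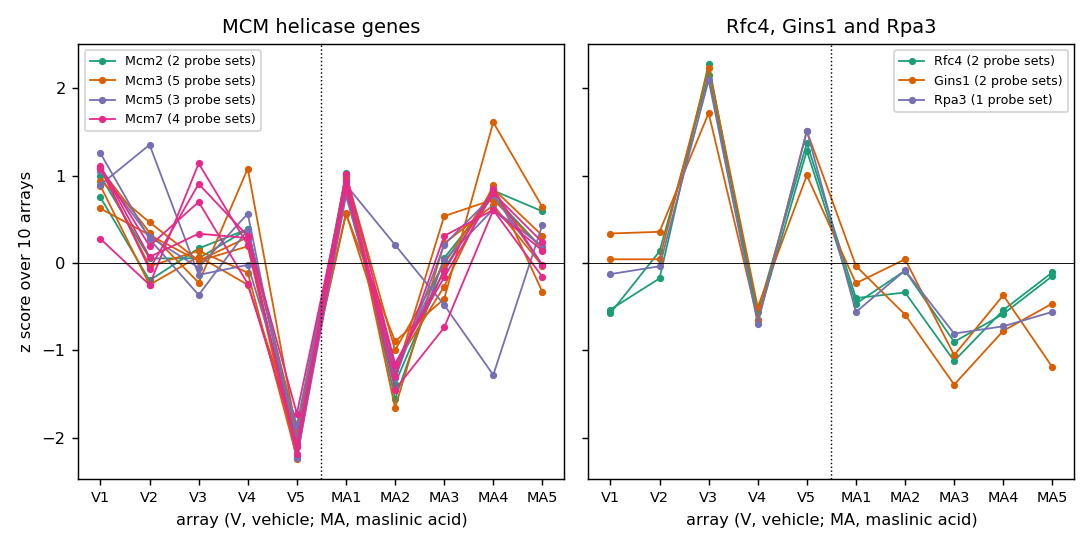
Lines give the z score over 10 arrays of every probe set with at least 8 distinct values, for 4 MCM ring genes (left) and for Rfc4, Gins1 and Rpa3 (right), with the number of probe sets in the legend. The ring genes are low in vehicle mouse 5 and, but for 1 dim Mcm5 probe set, in maslinic acid mouse 2, and the genes on the right are highest in vehicle mice 3 and 5.

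Where a member had several probe sets, those with finely resolved values followed each other array by array. The 18 further probe sets with 10 distinct values, on genes whose chosen probe set also had 10, correlated with it at a median r of 0.93, and 18 of 18 exceeded 0.7. Among the 31 comparisons with fewer distinct values on either side the median r was 0.58, with 11 above 0.7 and 5 below 0. The sign of g was shared by 11 of the 18 and 18 of the 31.

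Scored as the mean z over the 44 genes, the vehicle mice were at 0.74, 0.38, 0.70, 0.18 and -0.81, and the maslinic acid mice at 0.61, -1.11, -0.75, 0.12 and -0.05. The groups overlapped from end to end, with maslinic acid mouse 1 among the high arrays and vehicle mouse 5 next to the lowest. The means were 0.24 ± 0.63 and -0.24 ± 0.69 (SD, n = 5 each), a difference of -0.47, which is smaller than the SD of either group and is given without a test. Without vehicle mouse 5 the difference was -0.80 and without maslinic acid mouse 2 it was -0.24. The 5 genes outside the list that followed this score most closely, of 6711 with 10 distinct values, were Rad54l (r = 0.98), Ccnb2 (0.98), Cenpn (0.97), Gfi1b (0.97) and Depdc1b (0.97), over n = 10 arrays.

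Other replication genes, a list that shares no gene with the 44, also had mostly lower means. Of 42 measured, 31 had lower (73.8%, beside 48.3% of all genes), 10 higher and 1 equal means, and the median g was -0.42. At an unadjusted limma p under 0.05, 5 were lower and 0 higher, where 4.54% of all genes were lower and 4.29% higher. The lowest p values belonged to Tipin, a fork protection factor, with a g of -1.85 (-3.25 to -0.39), and Samhd1, which breaks down dNTPs, at -1.82 (-3.20 to -0.36). On the higher side they belonged to Mcm9, a paralog of the ring genes, at 0.63 and the polymerase delta subunit Pold3 at 0.50. Their score correlated with that of the members at an r of 0.93 (Spearman 0.95, r without the 2 farthest arrays 0.93, n = 10).

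Genes that control the step from G1 into S phase were split in direction. Of 27, 15 had higher, 11 lower and 1 equal means, with a median g of 0.11. At an unadjusted limma p under 0.05, 1 was higher and 1 lower, where 4.29% of all genes were higher and 4.54% lower. Tfdp1, the partner through which E2F factors bind DNA, had a g of -2.07 (-3.53 to -0.54), and the pocket protein gene Rbl1 was at -0.77. Cdkn1a, the p21 inhibitor of cyclin-dependent kinases, had a g of 1.49 (0.13 to 2.79), and Rbl2, another pocket protein gene, was at 1.11. The score of this list correlated with that of the members at an r of 0.85 (Spearman 0.82, r without the 2 farthest arrays 0.63, n = 10).

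Mitosis genes leaned lower, with 19 lower (90.5%, beside 48.3% of all genes) and 2 higher means among 21 and a median g of -0.49. At an unadjusted limma p under 0.05, 4 were lower and 0 higher, where 4.54% of all genes were lower and 4.29% higher. Neither this list nor the other replication genes were read after subtraction of array medians, where 85.1% of all genes had a lower mean. Bub1, a spindle checkpoint kinase, had a g of -1.90 (-3.31 to -0.42), and Cdk1, the kinase of mitotic entry, -1.54 (-2.85 to -0.17). Cdc20 and Plk1, the members of that list with higher means, were at 0.10 and 0.06. The mitosis score followed the replication score mouse by mouse, with an r of 0.97 (Spearman 0.98, r without the 2 farthest arrays 0.97, n = 10).

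Markers of blood cell precursors moved with the replication score. Over all genes, 48.3% had a lower mean and 4.54% were lower at an unadjusted limma p under 0.05. Of 6 granulocyte progenitor markers 5 were measured, and all 5 had lower means with maslinic acid, 3 of them at that level. Their score ran from -0.23 to 1.41 in vehicle mice and from -1.04 to -0.11 in treated mice, with means of 0.59 ± 0.59 and -0.59 ± 0.41 (SD, n = 5 each) and an r of 0.78 with the replication score (Spearman 0.88, 0.82 without the 2 farthest arrays). Ms4a3 and Ctsg, made in granulocyte precursors, had a g of -2.57 and -2.28. Of 8 erythroid markers 5 were measured, with a median g of 0.10 and a score from -1.36 to 1.48 in vehicle mice and from -1.21 to 1.35 in treated mice, at an r of 0.83 (Spearman 0.79, 0.68 without the 2 farthest arrays).

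Markers of other cell types of the joint and of nearby tissue also differed in mean between the groups or followed the replication score in part. For comparison, 48.3% of all genes had a lower and 47.9% a higher mean with maslinic acid. The r was -0.27 for 10 synovial fibroblast markers, of which 9 had higher means with maslinic acid, and -0.05 for 8 of 9 macrophage markers measured. It was 0.56 for 9 of 11 neutrophil markers, with 8 lower means, and 0.65 for 6 of 8 T cell markers, with 5 lower means. For 7 of 8 B cell markers it was 0.35, with 5 lower means. Without the 2 farthest arrays the r of these lists, in the order given, was -0.37, -0.08, 0.52, 0.51 and 0.45. Bone markers had higher means with maslinic acid in 5 of 5 measured of 6 listed, with scores from -1.66 to 0.19 in vehicle mice and from 0.11 to 1.02 in treated mice, a difference of 1.08 and an r of -0.08 (Spearman -0.41, -0.80 without the 2 farthest arrays). Adipocyte markers were higher in 4 of 4 measured of 6 listed, with scores from -1.44 to 0.31 and from -0.54 to 1.46, a difference of 0.77 and an r of -0.64 (Spearman -0.49, -0.69 without the 2 farthest arrays). Muscle markers were higher in 10 of 10 and cartilage markers in 6 of 6, with differences of 0.56 and 0.66 and an r of -0.15 and 0.51. Endothelial markers were higher in 5 of 6, with a difference of 0.44 and an r of 0.17. Without the 2 farthest arrays the r was 0.05 for muscle, -0.26 for cartilage and -0.29 for endothelial markers. The part of these cell types in the replication values was not tested. The plot of array scores sets the replication, mitosis and precursor lists side by side.

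**Figure D5:**
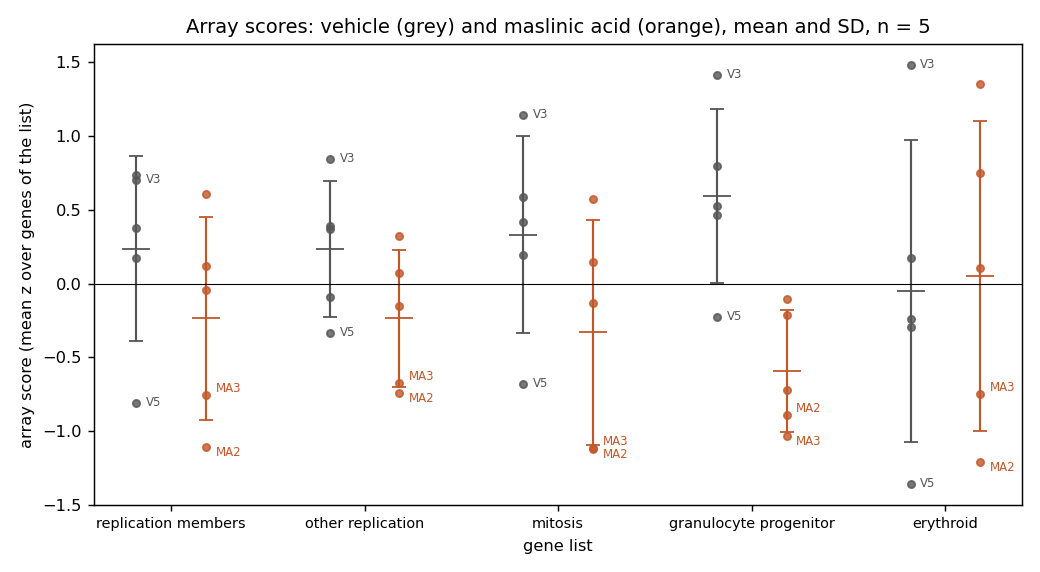
Points are the 5 mice of each group, scored as the mean z over the genes of a list, with the group mean and SD (vehicle grey, maslinic acid orange). The replication scores overlap from -0.81, the lowest vehicle mouse, to 0.61, the highest treated one, and the granulocyte progenitor scores average 0.59 in vehicle and -0.59 in maslinic acid mice with 1 vehicle mouse, mouse 5, inside the treated range.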

How the data were processed

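Total RNA from the synovium of 10 mice, 5 per group, was hybridised to Affymetrix 3′ arrays. The authors deposited 1 score per probe set and array, and R 3.2.1 is named per the submitters' processing notes, while the sources used here do not give background correction, normalization, summary method or scale. The design had assumed log2 values, but the spread of the scores did not settle a scale, so no fold is given. The number of arrays limits the precision, and the labels give no batch. No column was left out.

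Gene names come from the array's annotation, where 34202 probe sets named 1 gene, 931 several and 4860 none here, and 0 symbols changed through 34028 Entrez identifiers found in RefSeq. limma 3.58.1 (R 4.3.3) was fitted to all 39993 probe sets with lmFit and eBayes, two-sided, without covariates, with Benjamini-Hochberg adjustment at 0.05. Prior degrees of freedom were 0.503, so variances were hardly shared. Exact two-sided permutation tests used all 252 assignments of the arrays, and each p of a single gene is unadjusted unless it is called adjusted. Scores are means of z scores over the 10 arrays. Scripts were tested on simulated data. Python 3.11.15, numpy 2.4.6, pandas 2.3.3, scipy 1.17.1 and matplotlib 3.10.9 were used.

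Members and lists were chosen with earlier results of these data known, so no test of a list was made. Genes given with every array were, by rule, the 4 of lowest limma p in each direction and Pcna, Mcm2, Mcm6, Cdc6, Cdt1, Rrm2, Tyms, Ccne1, Ccna2 and E2f1. Of each other list the 2 genes of lowest p in each direction were named. The alternatives run were a block for the replicate number, quantile normalization, array medians, array weights, trended and robust eBayes, a level filter, a filter on distinct values, other ways to read a gene, the exact Wilcoxon test and leaving out mice.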

Additional observations from a re-analysis of the deposited data

Results flagged for a closer look

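Each group was checked for each of the 44 genes and 6 list scores, 100 times in all, and 7 times the lowest mouse of a group stood apart by more than Dixon's 95% critical value for the ratio of its gap to the group's whole range, which chance passes about 1 time in 20. Vehicle mouse 5 was that mouse in 5 of the 7, at a ratio of 0.855 for Cdt1, 0.840 for Cdc6, 0.790 for Mcm3, 0.745 for Pole and 0.716 for Lig1. Maslinic acid mouse 3 was the lowest in the other 2, at 1.00 for Gins2, where the remaining 4 treated mice held 1 value, and at 0.750 for Gins4. Genes of these arrays share their RNA, so the 7 are not independent.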

How the results depend on the processing

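Over all probe sets, 8 passed an adjusted p of 0.05 after quantile normalization, 1 without maslinic acid mouse 1 and 0 in the other settings. The lowest adjusted p of a member was above 0.05 in each setting run, with 0 members past the threshold and 0 higher at an unadjusted limma p under 0.05. The 6 members lower at that level (13.6%, beside 4.54% of all genes) became 3 with the replicate number as a block (6.82%, beside 3.64%), 0 after subtraction of array medians (beside 0.778%), 2 of 32 among genes with 10 distinct values (6.25%, beside 3.86%), and from 4 to 10 when 1 mouse was left out. Of genes with 10 distinct values 19 had a lower mean. The labels do not say whether replicate numbers pair the mice, and the numbers were not used to pair them. Deviations of same-numbered mice correlated from -0.39 to 0.35 over 5 pairs, and 2 of 5 vehicle mice correlated best with their own number. The median g of all genes moved to -0.18 after quantile normalization and to -0.39 with array medians.

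Several g values changed sign. After quantile normalization Mcm3 was at -0.62, Mcm2 at -0.32, Cdt1 at -0.066, Rrm2 at -0.36 and Ccne1 at 0.18. Cdt1 was at -0.19 with array weights, and Ccne1 at 0.15 with the mean of probe sets. Without vehicle mice 3 and 5 Pold2 was at -0.26, Mcm3 at -0.19, Rpa1 at -0.25, Mcm2 at -0.39, Cdt1 at -0.79 and Rrm2 at -0.30. With 1 mouse left out, g ran from -0.089 to 0.80 for Mcm3, -0.077 to 0.70 for Rpa1, -0.31 to 0.59 for Mcm2, -0.91 to 0.26 for Cdt1, -0.18 to 0.67 for Rrm2 and -0.40 to 0.52 for Ccne1. The cause was not tested. These comparisons covered only the genes given with every array by rule. In 307 others of them no sign turned, but 1, Pcna after quantile normalization, was at 0.00 and had no direction. Signs also turned among the remaining members. After quantile normalization Lig1 was at -1.07, Mcm5 at -0.038 and Mcm10 at -0.20. With 1 mouse left out, g ran from -0.71 to 0.12 for Mcm7 and from -0.51 to 0.39 for Orc1.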
